A study of Plecoglossus altivelis with 2 samples.

Results

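Of 70911 components in a transcriptome assembly of ayu larvae, 329 (0.464%) held 30 or more assembled transcripts. A component is the second identifier of the deposited tables, shared by all sequences that differ only in their last number, and members were found by counting the transcript rows of each component in the table of the library from brackish water, BW below. The same 329 components hold the same transcripts in the table of the library from fresh water, FW below. Together they list 15015 of 145445 transcripts (10.3%).

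Ayu (Plecoglossus altivelis) is a fish that migrates between rivers and the sea. The study set larvae in BW, with 0.17 M NaCl and a salinity of 10 ppt, against larvae in FW. Both groups were kept at 20 to 22 °C, in groups of 20 fish, and sampled after 4 weeks of acclimation, without genetic manipulation stated in the labels. Each salinity is 1 library made from a mixture of 9 tissues (gill, kidney, intestine, skin, liver, heart, muscle, brain and spleen), and how many fish and tanks entered a mixture is not stated in the labels. No difference below therefore has a replicate check and none was tested, and in a mixture of tissues a change in the make-up of the mixture and a change of RNA level per cell cannot be told apart. Intervals are exact binomial (Clopper-Pearson) 95% intervals that cover counting error only. The identifiers carry no gene names, so no tissue marker could be looked up and no function is given to a component.

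A de novo assembly joins overlapping reads without a genome and keeps sequences that share stretches together as one group. Alternative splicing, alternative starts and ends, alleles of different fish, close gene copies, retained introns and assembly errors can all add sequences to such a group. Reads that match several of its sequences have to be divided among them by estimation, so the total of a group is better determined than the share of any of its sequences. Which of these sources filled the present components was not tested.

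The components ranged from 30 to 150 transcripts, with a median of 40. Their sequences were long: the median length of their transcripts was 2397 bases, against 686 bases for the transcripts of the other components. The longest transcript of a component measured 4106 bases in the median component and from 1478 to 16779 bases over all 329. Within a component the lengths were spread widely, with a median shortest transcript of 323 bases. The sequence numbers ran from 1 to the number of rows in all 329. They carried 326 different leading numbers, and 3 of these held a pair of such components each. The leading numbers ran from 120243 to 127646, against 158 to 134647 in the assembly as a whole. At the threshold, 24 components had exactly 30 transcripts and 25 had 29. The median share distance, defined below, was 43.3% at 30 transcripts and 28.9% at 29, and the median fold of the totals was 1.07 and 1.01. Depth differed between these small groups. The median count was 2240 in BW and 1987 in FW at 30 transcripts, against 3060 in BW and 3171 in FW at 29. Its part in the distances was not tested.

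Their part of the counts was small beside their part of the listed transcripts. The 329 components took 1467428 of 72013090 estimated counts in BW (2.04%) and 1431097 of 72522809 in FW (1.97%). Their summed TPM, a level per transcript length, made up 1.11% of all TPM in BW and 1.05% in FW. A median component had 3175 counts in BW and 2775 in FW, against 2535 in BW and 2390 in FW at 20 to 29 transcripts and 276 in BW and 282 in FW at 2 to 4. The range was 283 to 89576 counts in BW and 72 to 62364 in FW. In TPM the median component reached 24.4 in BW and 21.6 in FW.

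A large part of the listed sequences had no counts. In BW 5728 of the 15015 transcripts (38.1%) were at 0, and in FW 6933 (46.2%). Among the transcripts of all other components the shares at 0 were 10.8% in BW and 17.4% in FW. In both libraries at once 4124 transcripts were at 0 (27.5%), against 4.70% of the others, so that these components held 40.2% of all such transcripts in the assembly. Counts above 0 were found for 6478 transcripts in both libraries, for 2809 in BW only and for 1604 in FW only. Every listed transcript had a count above 0 in 7 components in BW and in 6 in FW.

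The share at 0 followed the number of transcripts also among components within one range of total counts. Counts per transcript were not matched, since longer lists divide a total over more transcripts, and their part was not tested. Among components with 1000 to 10000 counts over both libraries, the share at 0 was 11.6% in BW and 11.2% in FW for those with 2 to 4 transcripts. It was 24.0% in BW and 33.6% in FW for those with 20 to 29. For the 238 with 30 or more it was 38.4% in BW and 46.8% in FW. Within the 329 it was 32.5% and 41.3% in BW and FW at 30 to 39 transcripts, and 45.7% and 55.2% at 60 to 150 transcripts.

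**Figure D1:**
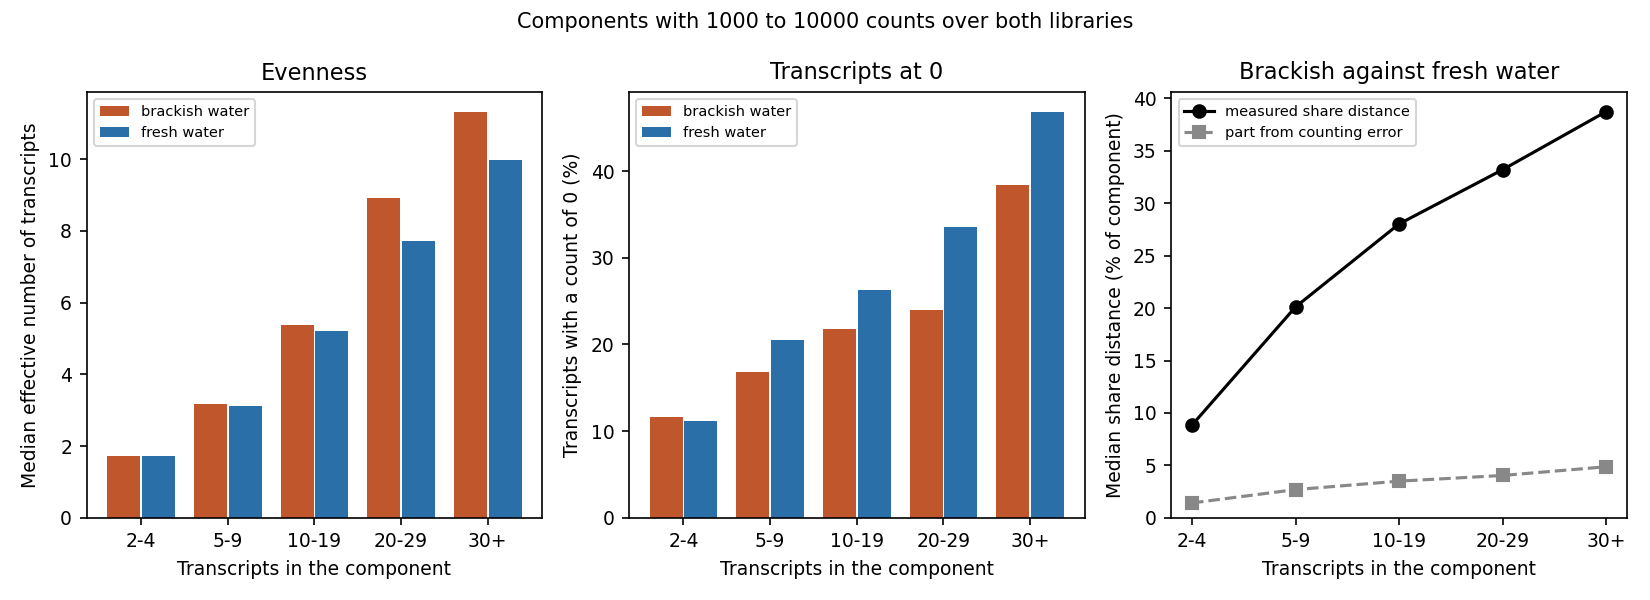
Components with 1000 to 10000 counts over both libraries, grouped by number of transcripts (x axis). Bars give the median effective number of transcripts (left) and the percent of transcripts at 0 (middle) in BW and FW, and lines give the median share distance between the libraries with the part that counting error gives (right); all rise with the number of transcripts, the share distance to 38.7% at 30 or more.

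The totals of the 329 components lay close together in the 2 salinities. Folds are of summed counts, BW over FW, after TMM scaling (a factor that aligns the bulk of features between libraries) and with a pseudocount of 0.5. A component was called apart at 2-fold or more if the larger of its 2 scaled counts reached 50, which it did in all 329. Of these, 5 were 2-fold higher in BW and 1 was 2-fold higher in FW. Over all 35293 components that met the minimum, 8.31% were 2-fold higher in BW and 9.92% were 2-fold higher in FW. Abundance differs between these sets, and among the 11319 components with 1000 to 10000 counts (both libraries added) 3.77% were 2-fold apart in either direction. In that class the share was 3.67% at 2 to 4 transcripts, 2.04% at 10 to 19, 1.68% at 20 to 29 and 1.68% at 30 or more, so the low share was not particular to the longest lists.

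The typical fold was small. The median log2 fold was 0.08 over the 329 components and -0.01 over all components compared. It was 0.05 at 10 to 19 transcripts and 0.08 at 20 to 29. The median absolute fold of the 329 was 1.14, against 1.18 over all components with 1000 to 10000 counts. As a log2 value it was 0.19, beside 0.20 at 20 to 29 transcripts and 0.21 at 10 to 19. A small fold was thus not particular to the longest lists. Of the 329, 233 lay within 1.25-fold. Totals were higher in BW in 199 components and lower in 130. The counting interval lay above 1 for 164, below 1 for 100 and across 1 for 65. Such intervals narrow with depth. No share over all components is given beside the counts within 1.25-fold, by direction or by interval. At 1.5-fold, 22 of the 329 were higher in BW and 14 in FW, against 16.9% higher in BW and 19% higher in FW over the 35293 components. Abundance differs between these sets, and no share at like depth is given for 1.5-fold.

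**Figure D2:**
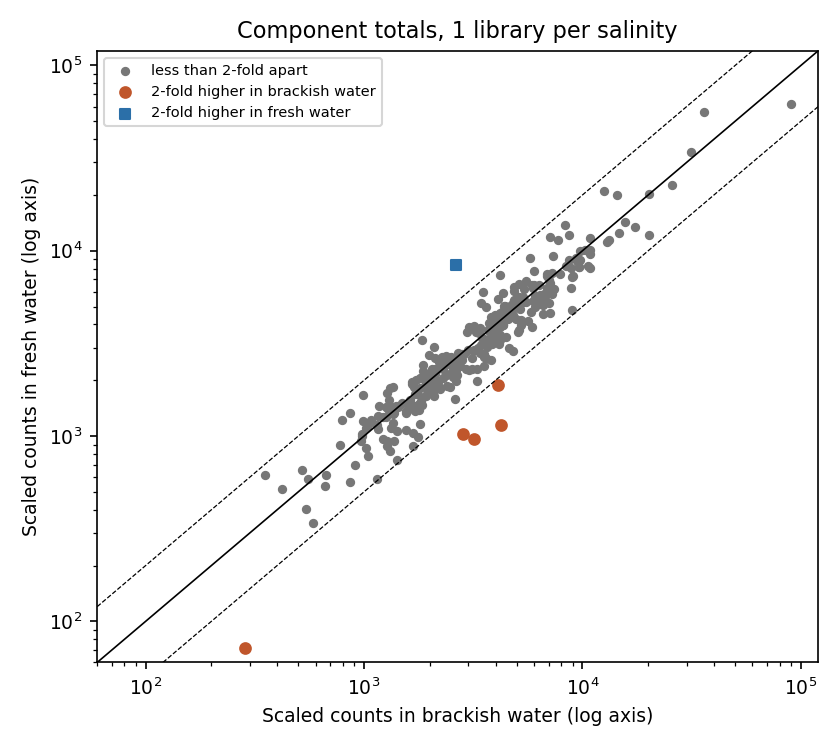
Summed scaled counts of the 329 components in BW (x axis) and FW (y axis), both on log axes; the solid line marks equal totals and the dashed lines a 2-fold difference. All but 6 points lie between the dashed lines, 5 of the others being higher in BW and 1 in FW.

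The largest difference upwards was in the component with the fewest counts. comp126032_c11, with 33 transcripts, had 283 counts in BW and 72 in FW, a fold of 3.95 (95% interval 3.06 to 5.22). In BW all 33 of its transcripts had counts and the leading one took 7.42%, the counts being spread thinly over the whole set. In FW 7 transcripts had counts and the leading one, comp126032_c11_seq28, took 37.8%.

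Component comp124202_c0, with 37 transcripts, had 4202 counts in BW and 1148 in FW, a fold of 3.70 (3.47 to 3.95). Its summed TPM was 49.2 in BW and 15.7 in FW. The BW counts lay on 24 transcripts and the FW counts on 4, and 2 transcripts had counts in both. The leading transcript in BW, comp124202_c0_seq33 of 1378 bases, had 1046 counts there and 0 in FW, which allows a share of up to 0.261%. The leading one in FW, comp124202_c0_seq25 of 1166 bases, had 0 counts in BW, which allows up to 0.0714%, and 499 in FW. Both the total and its division thus differed in this component.

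Component comp123913_c6, with 30 transcripts, had 3184 counts in BW and 969 in FW, a fold of 3.32 (3.09 to 3.57). Its transcript comp123913_c6_seq6 of 1127 bases took 35.1% in BW and 5.03% in FW. Component comp127319_c2, with 38 transcripts, had 2815 counts in BW and 1026 in FW, a fold of 2.77 (2.58 to 2.98). Of its 15 transcripts that met the count minimum, 12 were 2-fold higher in BW and 0 in FW. Its transcript comp127319_c2_seq11 of 3836 bases stood apart from them, with 410 counts in BW and 637 in FW, and took 14.6% of the component in BW against 62.1% in FW. The fifth component higher in BW, comp125770_c0 with 71 transcripts, is named here after its values were seen, and its fold was 2.17 (2.06 to 2.30).

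In the opposite direction comp124752_c0, with 36 transcripts, had 2628 counts in BW and 8387 in FW, which is 0.317 times the FW total (0.303 to 0.331). Its TPM was 16.7 in BW and 42.5 in FW. Counts fell on all 36 transcripts in BW and on 23 in FW. The transcript comp124752_c0_seq28 of 4373 bases had 297 counts in BW and 3241 in FW, and comp124752_c0_seq21 of 4431 bases had 304 and 2028. These 2 sequences took 11.3% and 11.6% of the component in BW and 38.6% and 24.2% in FW.

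The next lower totals did not reach 2-fold. comp125667_c4 was at 0.561 times the FW total (0.529 to 0.594), comp127039_c9 also at 0.561 (0.540 to 0.583) and comp120243_c1 at 0.575 (0.503 to 0.657).

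The most abundant of the components differed less than 2-fold. comp124426_c1, with 40 transcripts, had 89576 counts in BW and 62364 in FW, a fold of 1.45 (1.44 to 1.47), and a TPM of 499.9 and 339.3. comp125492_c1, with 44 transcripts, had 35667 counts in BW and 56711 in FW, 0.636 times the FW total (0.628 to 0.645). These 2 components lay on opposite sides of equality. The rest of the 5 with most counts were nearer to it, at 0.922 for comp126089_c0, 1.13 for comp127249_c1 and 0.994 for comp126220_c0, and the interval of the last spanned 1 (0.975 to 1.01).

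Evenness describes how the counts of a component are divided. It is given as the effective number of transcripts, the number of equally abundant transcripts with the same Shannon entropy of shares. The median effective number was 11.1 in BW and 10.1 in FW. Relative to the transcripts listed, the median was 27.1% in BW and 23.4% in FW. The leading transcript took a median of 24.7% in BW and 26.1% in FW, and it took over 50% of the counts in 21 components in BW and in 24 in FW. A median of 3 transcripts held the first 50% of the counts in each library, and 90% were held by 11 in BW and 10 in FW.

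Longer lists came with more effective transcripts, but far fewer than were added. At 30 to 39 transcripts the median effective number was 9.83 in BW and 8.62 in FW. At 60 to 150 it was 14.4 in BW and 13.2 in FW. Across the 329 components the Spearman correlation of transcripts listed with the effective number was 0.38 in both libraries. The numbers of the 2 libraries had a Spearman correlation of 0.63 across the same components, which share one assembly.

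The effective number was higher in BW in 206 components (62.6%). The difference exceeded 1.96 counting errors in this direction in 190 and in the other direction in 105. Counting errors shrink with depth, and no share over other components is given beside these counts. Of all 14852 components that held several transcripts and had 50 or more counts in both libraries, 50.6% had the higher number in BW. This share was 47.9% at 2 to 4 transcripts, 57.3% at 10 to 19 and 58.6% at 20 to 29. The lean to BW was thus not particular to the longest lists. A count of 0 was more frequent in FW than in BW, in these and in other components, and its part in this result was not tested. Among the 130 components with the higher total in FW, 75 had the higher effective number in BW (57.7%). Among the 199 with the higher total in BW, 131 did (65.8%). The inverse Simpson index, which weights the leading transcripts more, was higher in BW in 195 of the 329.

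**Figure D3:**
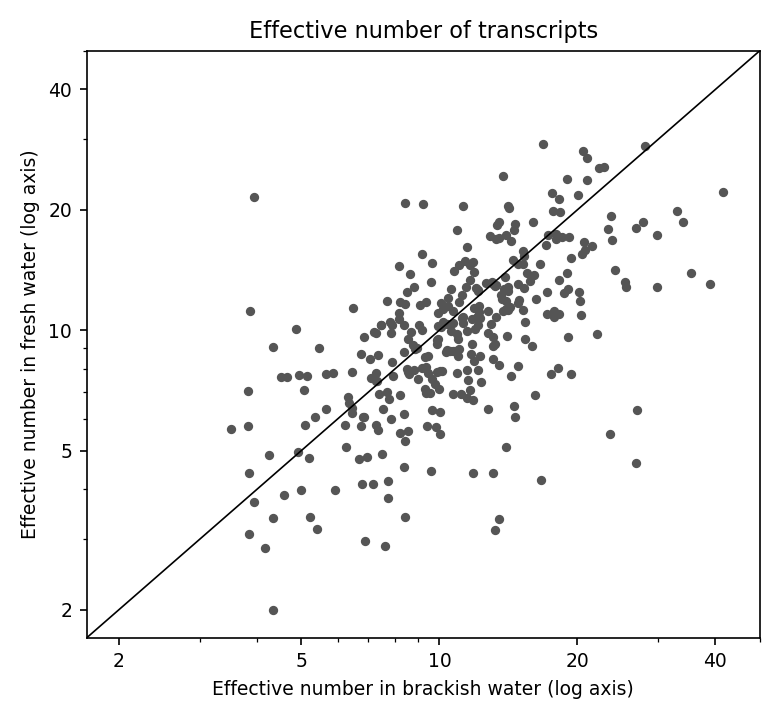
Effective number of transcripts of the 329 components in BW (x axis) and FW (y axis), on log axes, with the line of equal numbers. More points lie below the line, 206 of 329 being higher in BW, and single components lie far from it on both sides.

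The 5 components with most transcripts show how far list and use were apart. comp127514_c1 listed 150 transcripts, of which 84 had counts in BW and 69 in FW. Its effective number was 28.0 ± 0.339 in BW and 28.9 ± 0.258 in FW (counting SE). The leader was not the same, comp127514_c1_seq88 with 12.3% in BW and comp127514_c1_seq132 with 9.17% in FW. The total of the component was 7642 counts in BW and 11544 in FW, 0.669 times the FW total (0.650 to 0.689). comp126127_c2, with 134 transcripts, had a like fold of 0.658 (0.630 to 0.687) but unlike evenness. Its effective number was 13.8 ± 0.342 in BW and 24.3 ± 0.351 in FW, and comp126127_c2_seq1 of 5238 bases took 35.3% in BW and 11.7% in FW.

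Component comp124050_c6, with 125 transcripts, kept its leading transcript: comp124050_c6_seq86 of 3573 bases took 21.9% in BW (95% interval 21.1 to 22.8) and 21.6% in FW (20.8 to 22.5). comp124877_c0, with 110 transcripts, reached the highest effective number in BW, 41.5 ± 0.716, against 22.2 ± 0.460 in FW. To reach 90% of its counts took 43 transcripts in BW and 22 in FW. comp127343_c0, with 103 transcripts, had almost equal totals, 2014 counts in BW and 2067 in FW. Its effective number was 25.4 ± 0.556 in BW and 13.2 ± 0.334 in FW, so equal totals did not go with equal division.

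By Pielou evenness, the entropy as a part of its maximum for the transcripts listed, components with 200 or more counts in both libraries were ranked on the mean of both values. The most even were comp127607_c1, comp126172_c1, comp125273_c0 and comp124826_c3. comp126172_c1 had a value of 0.808 in BW and 0.837 in FW. Its leading share was 11.3% in BW and 9.50% in FW, held by another transcript in each library. comp124826_c3 had counts on all 53 of its transcripts in BW and on 50 in FW, with 0.888 and 0.737. comp127607_c1 differed the other way, with 0.756 in BW and 0.903 in FW. In single libraries the order differed, and comp126032_c11, left out of the ranking by its 72 counts in FW, had the highest value in BW, 0.942.

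The least even by the same mean were comp123630_c0, comp126071_c0, comp126855_c10 and comp126583_c0. comp126583_c0_seq6 of 3987 bases took 62.3% of its component in BW and 72.6% in FW. comp126855_c10_seq26 of 3905 bases took 61.6% in BW and 66.8% in FW. comp126071_c0 listed 51 transcripts, of which 9 had counts in BW and 13 in FW, and comp126071_c0_seq42 of 7074 bases took 40.3% and 62.5%. In comp126583_c0, comp126855_c10 and comp126071_c0 the same transcript led in both salinities.

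The division of counts differed between the libraries also where the totals lay close together. The share distance is the percent of a component's counts that would have to move to other transcripts for the shares of both libraries to be equal, 0% for equal shares and 100% when no transcript is used in both. Its median over the 329 components was 36.1%, with a range of 7.34% to 100%. Counting error alone gives a median of 4.16% at these depths, and the distance was more than 3 times that part in 327 of 329. The error of dividing reads among alike sequences is not in the files and adds to this part by an unknown amount. Over the 14852 components with several transcripts the median distance was 16.5%.

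Across classes of components the distance was larger with more transcripts, and within the 329 it was smaller at greater depth. Among components with 1000 to 10000 counts it was 8.84% at 2 to 4 transcripts, 20.1% at 5 to 9, 28.0% at 10 to 19, 33.2% at 20 to 29 and 38.7% at 30 or more, while the part from counting error was 1.42% in the first of these classes and 4.87% in the last. The ratio of the distance to that part, taken for each component, had a median of 6.54 at 2 to 4 transcripts and 7.32 at 5 to 9. It was 7.88 at 10 to 19, 7.72 at 20 to 29 and 7.82 at 30 or more, with no further rise from 10 transcripts on. Within the 329, the 58 components with fewer than 3000 counts, both libraries added, had a median of 45.4%, the 185 with 3000 to 10000 counts 37.9% and the 86 with more 28.1%. The Spearman correlation of total count and distance was -0.48 across the 329. That of the number of transcripts and distance was 0.12, with medians of 34.9% at 30 to 39 transcripts, 35.4% at 40 to 59 and 40.4% at 60 to 150. The correlation of the distance with the absolute log2 fold was 0.15.

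**Figure D4:**
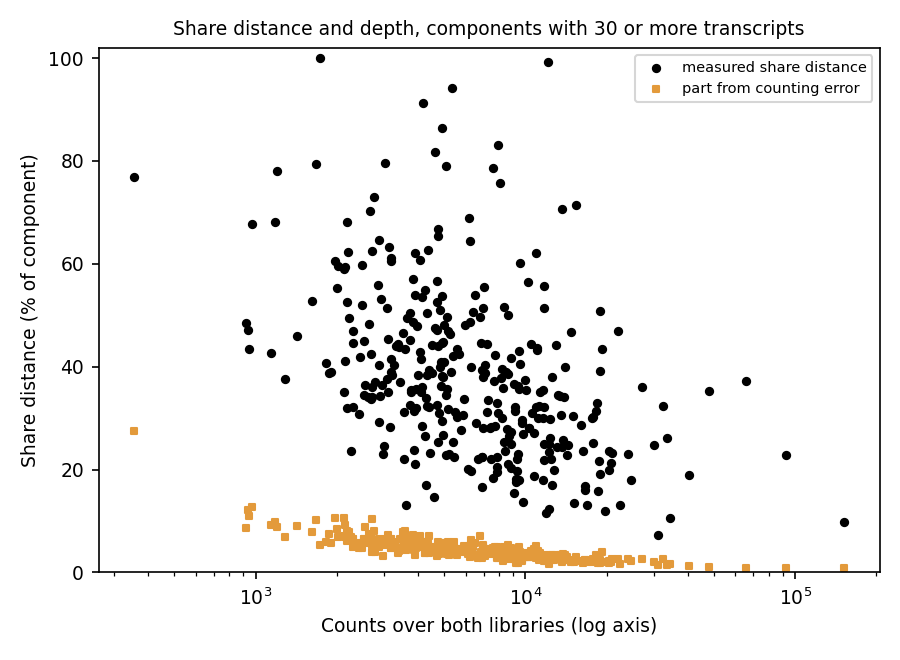
Share distance between BW and FW (y axis, percent of a component's counts) against the counts over both libraries (x axis, log axis) for the 329 components, with the part that counting error gives as squares. The measured distances, 7.34% to 100%, lie above the counting part of the same component throughout.

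Single transcripts mirrored this. Of 5165 member transcripts whose larger scaled count reached 50, 1678 were 2-fold higher in BW and 1427 in FW, together 60.1%. Over all 70122 transcripts that met the minimum, 38.9% were 2-fold apart, 19.5% being higher in BW and 19.4% in FW. The share 2-fold apart rose with the number of transcripts, from 35.0% at 2 to 4 to 49.6% at 10 to 19 and 53.3% at 20 to 29. Of the 3105 member transcripts 2-fold apart, 3041 lay in a component whose total was not 2-fold apart. Only 1.82% of the 329 components had a total 2-fold apart, so most member transcripts lie in the others in any case. In 307 of the 329 components transcripts differed both ways, 1 or more being 2-fold higher in BW and 1 or more in FW. That is 93.3%, against 24.7% of the 14852 components with several transcripts. The share was 10.3% at 2 to 4 transcripts, 68.1% at 10 to 19 and 85.7% at 20 to 29. In 135 components a transcript with 50 or more counts in BW and 0 in FW stood beside one at 0 in BW with 50 or more in FW. That is 41.0% of the components, against 5.04% of the 14852. It too followed the number of transcripts, with 1.27% at 2 to 4, 15.1% at 10 to 19 and 27.0% at 20 to 29.

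How often one transcript moved depended on the size of the move. A share moved by 25 percentage points or more in 45 of the 329 components (13.7%), against 24.7% of the 14852. At 1000 to 10000 counts this was 14.4% at 2 to 4 transcripts, 23.8% at 5 to 9, 22.8% at 10 to 19, 19.2% at 20 to 29 and 14.3% at 30 or more, so it was about as frequent in the longest lists as in the shortest. A share moved by 10 points or more in 230 (69.9%), against 61.5% of the 14852. It moved by 50 points or more in 4 components (1.22%), against 6.15% of the 14852. A move of 25 points needs a share of 25% or more in 1 library. The median leading share of the 329 was 24.7% in BW and 26.1% in FW, against 80.4% in each at 2 to 4 transcripts. How far this limits the rates was not tested. The leading transcript was another one in BW than in FW in 166 components (50.5%), against 23.3% of the 14852. No margin was required, so near ties count as a change of leader. In comp126127_c2 the FW leader had 613.63 counts in FW and the BW leader had 612.75 there. How many of the 166 are near ties was not examined. At 1000 to 10000 counts the share with another leader was 12.2% at 2 to 4 transcripts, 37.9% at 10 to 19, 47.5% at 20 to 29 and 52.9% at 30 or more.

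Where the leaders differed, they were mostly unlike in length. Their median gap was 525.5 bases, it was 100 bases or less in 28 of the 166 components and more than 1000 bases in 57. In 26 of them the leaders simply changed places, each being the runner-up in the other library. The BW leader was at 0 in FW in 18 components, the FW leader at 0 in BW in 17, and both at once in 7. No share over other components is given beside these counts, or beside those that follow here. Over all 329 components, a median of 3 of the 5 highest transcripts was common to both libraries. All 5 were in common in 16 of the 329 and 0 in 7. The leader was the longest transcript in 24 of the 329 components in BW and in 21 in FW.

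**Figure D5:**
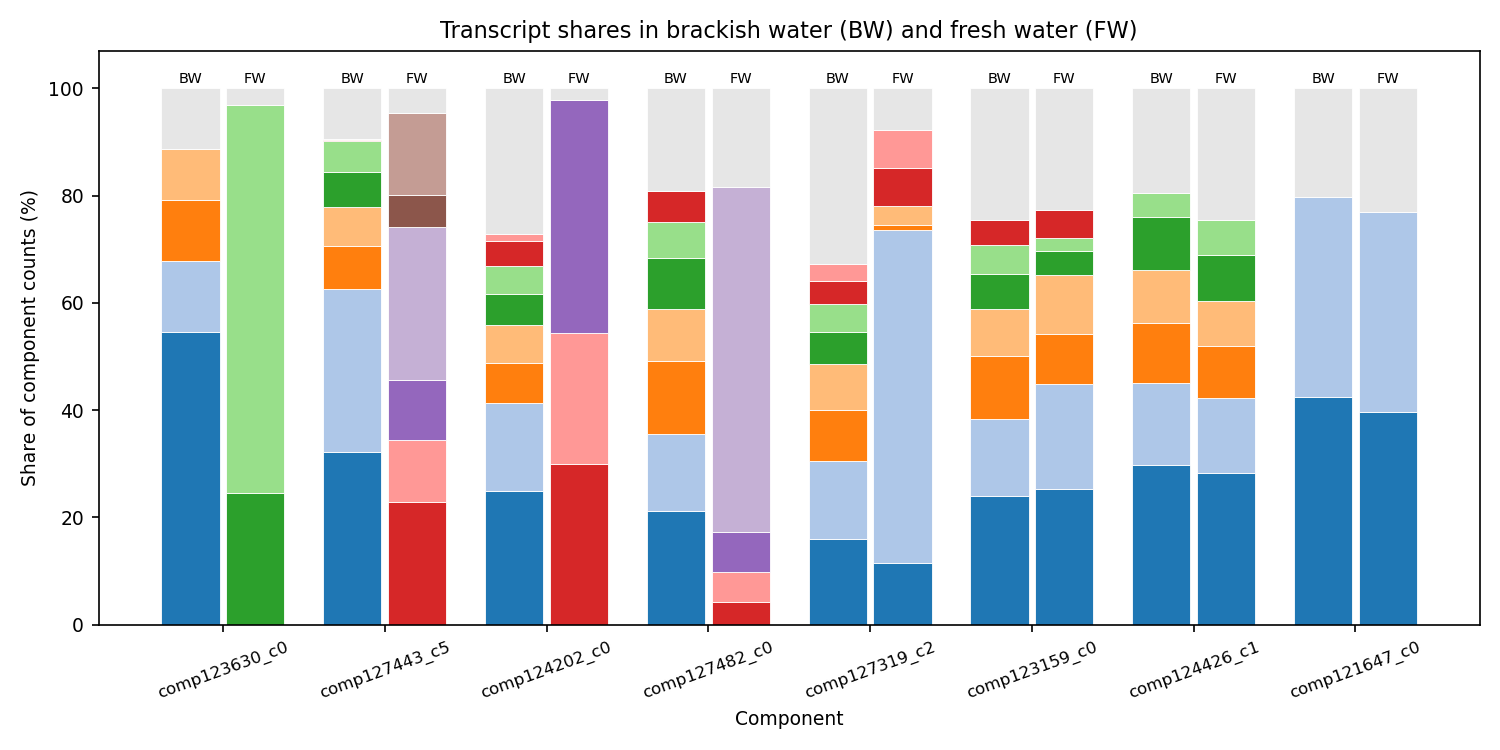
Shares of component counts (y axis, percent) in BW and FW for 4 components with the largest share distance, comp127319_c2, and 3 of the 4 with the smallest; each colour is 1 transcript within a component, transcripts under 5% in both libraries are pooled in grey, and colours are not linked between components. In the 4 components on the left the colours of the paired bars hardly overlap, and on the right they nearly match. In comp127319_c2, with a distance of 57.0%, they overlap in part.

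The clearest separation was in comp123630_c0, with 33 transcripts and 1140 counts in BW and 593 in FW. Its distance was 100%: 8 transcripts had counts in BW, 3 had counts in FW, and 0 had counts in both. In BW comp123630_c0_seq26 of 1692 bases took 54.6%, seq25 of 1146 bases 13.3%, seq21 of 1954 bases 11.3% and seq20 of 2014 bases 9.48%. In FW comp123630_c0_seq6 of 1632 bases took 72.2% and seq18 of 1813 bases 24.6%. The leading sequences were alike in length though not the same, and the distance was 42.0% when transcripts were pooled in length bins of 100 bases. The total was 1.94-fold higher in BW (1.76 to 2.15).

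Component comp127443_c5 was as divided at greater depth and with near equal totals. It had 6320 counts in BW and 5837 in FW, a fold of 1.09 (1.06 to 1.13), and a distance of 99.3%, or 40.3% when pooled by length. Of its 36 transcripts, 16 had counts in BW and 9 in FW, and 5 had counts in both. In BW seq22 of 5132 bases held 2039 counts and seq5 of 5607 bases 1917, both at 0 in FW. In FW seq3 of 5552 bases held 1670 counts, at 0 in BW, and seq30 of 5106 bases held 1332, with 20.8 in BW. A count of 0 for seq22 in FW allows a share of up to 0.0514%, and for seq3 in BW up to 0.0475%. All of the sequences with at least 5% in either library were 5106 to 5804 bases long, and the count-weighted mean length of the component was 5387 bases in BW and 5458 in FW. The effective number was alike as well, 6.45 in BW and 6.20 in FW.

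In comp127482_c0, with 47 transcripts and a distance of 91.3%, the counts were spread in BW and gathered in FW. Its effective number was 11.9 in BW and 4.38 in FW. comp127482_c0_seq33 of 5052 bases had 0 counts in BW, which allows up to 0.116%, and 64.3% of the counts in FW. comp127482_c0_seq41 of 4951 bases took 21.3% in BW and had 0 counts in FW, which allows up to 0.188%. The total was 1.63-fold higher in BW (1.53 to 1.74). Together with comp124202_c0 at 94.2%, these components are the 4 of the 329 with a distance of 90% or more (1.22%), against 0.896% of the 14852.

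A share moved by 50 points or more in comp123630_c0, comp127482_c0, comp126561_c1 and comp125750_c6, the last pair being named after their values were seen. comp125750_c6, with 30 transcripts, had the largest single move, 73.5 points, at totals of 4048 counts in BW and 3891 in FW (fold 1.05, 1.01 to 1.10). Its distance of 83.0% shrank to 12.4% when pooled by length. In comp127482_c0 the same pooling left 75.6% and in comp124202_c0 78.8%. Pooling by length was chosen after the data had been seen, and over the 329 components it lowered the median distance to 28.0%.

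Other components kept their division. comp121647_c0, with 46 transcripts, had the smallest distance, 7.34%, of which counting error gives 1.39%. Its transcripts seq42 of 2915 bases and seq22 of 2945 bases took 42.5% and 37.2% in BW and 39.7% and 37.3% in FW. The total was 17371 counts in BW and 13559 in FW, 1.30-fold higher (1.27 to 1.33). In comp124426_c1, the most abundant, the distance was 9.90%, the leading transcript of 3894 bases took 29.8% in BW and 28.3% in FW, and no share moved by more than 2.12 points. In comp123159_c0, with 37 transcripts, 23 had counts in BW and 23 in FW, and these were the same 23. Its distance was 10.5%, while its total was 0.719 times the FW total (0.704 to 0.735). comp125362_c1, with 31 transcripts, had a distance of 11.6%, and its leading transcript took 51.5% in BW and 51.1% in FW.

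Among the abundant components division and total also moved apart. In comp126089_c0, with a fold of 0.922 (0.908 to 0.936), seq24 of 5229 bases took 52.9% in BW (52.4 to 53.5) and 25.01% in FW (24.6 to 25.5). In comp127249_c1, seq29 of 8442 bases had 0 counts in BW, which allows a share of up to 0.0118%, and 6311 counts or 27.9% in FW. The leader of that component was the same in both libraries, at 47.6% in BW and 36.9% in FW.

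The count-weighted mean transcript length was longer in BW in 196 components and in FW in 133. The median difference, BW minus FW, was 37.6 bases, against 2.92 bases over the 14852. These are not on a like scale. The median longest transcript was 4106 bases in the 329, against 1166 bases in components with 2 to 4 transcripts. The median difference of the 329 was small beside the median of 2842 bases in BW and 2804 bases in FW. The difference reached 10% in 46 components. No share over other components is given beside these counts, and no value for 20 to 29 transcripts. Its extremes were 1777 bases longer in BW for comp127236_c3 and 622 bases shorter for comp127249_c1.

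The folds of the 3 pairs of these components that share a leading number are given here, with intervals that cover counting error only. How often the folds of other pairs of components lie as far apart was not examined. Other components under the same leading numbers were not examined either. For comp127563 the folds were 1.48 (1.40 to 1.56) for c4 and 0.918 (0.878 to 0.960) for c5. For comp126464 they were 0.871 (0.840 to 0.904) for c1 and 0.602 (0.585 to 0.621) for c2. For comp126538 they were 1.30 (1.25 to 1.35) for c1 and 1.02 (0.972 to 1.08) for c3.

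The authors' deposited table compares the libraries transcript by transcript, and its log2 fold runs FW over BW. It lists 10106 of the 15015 member transcripts and calls 4 of them, or 0.0396%, against 0.223% of all 133434 in the authors' deposited table. The 4 calls in the authors' deposited table are all higher in FW and lie in 2 components, comp125492_c1 and comp127187_c0. For comp125492_c1_seq31 of 1039 bases the authors' deposited table gives 0 counts in BW and 4457 in FW. For comp127187_c0_seq16 of 577 bases the authors' deposited table gives 0 counts in BW and 1156 in FW. FPKM was low for most member transcripts: the higher value of the 2 libraries had a median of 0.37 in the authors' deposited table, against 1.26 over all its transcripts. Only 70 member transcripts in the authors' deposited table reached 13.31, the lowest such value among all calls.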

How the data were processed

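RNA from 1 brackish water (BW) and 1 fresh water (FW) library was measured. Per the labels' protocols, polyadenylated RNA was enriched, fragmented, copied with random hexamers and amplified by PCR. Not given in the sources used here, and so unknown, are assembler, aligner and quantifier. The authors deposited an expected count, TPM, FPKM and the percent of its component for each transcript, per the file headers. The table of the whole series holds the authors' count, FPKM, log2 fold, p-value and FDR for each transcript, as its header names them. The deposited effective length equalled the length for all 145445 transcripts.

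TMM factors were estimated over all transcripts on counts rounded to whole numbers (edgeR 4.0.16, R 4.3.3). Folds, shares, entropy and distances were computed from unrounded counts with Python 3.11.15 and pandas 2.3.3, intervals from rounded counts with scipy 1.17.1, figures with matplotlib 3.10.9. The counting part of a share distance uses the normal formula for a difference of shares. A count of 0 was given a limit of 3 counts. Libraries were amplified by PCR and no molecular identifiers are named, so reads are not independent molecules, intervals and limits cover counting error only, and they are too narrow if both mates of a pair were counted. The scripts were tested on simulated counts. Depth was 72013090 counts in BW and 72522809 in FW.

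Named components are the 5 with most transcripts, the 5 with most counts, the 4 largest differences in each direction, and the 4 at each end of Pielou evenness and of share distance. Members, lists and rules were chosen with earlier results of these data known. Alternatives were DESeq2 1.42.0 size factors, total counts, TPM, other minima, pseudocounts, thresholds and evenness measures.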

Additional observations from a re-analysis of the deposited data

How the results depend on the processing

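Leave-one-out values do not exist, since either salinity has a single library. No paired analysis was possible because BW (brackish water) and FW (fresh water) are single libraries without replicate numbers. Depth limits single transcripts most, and without replicates the spread between fish or tanks is unknown.

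Of 76 alternative values, 43 stayed within a set limit of the reported value and 33 did not. For a count the limit was 1.5 times. For a median it was the typical (median) counting error of a single component. That was 0.0753 for the log2 fold and 4.16 points for the share distance. The error of a median over all the components is another quantity and was not computed, so staying within the limit is a loose criterion for medians. The number of components 2-fold apart (5 higher in BW, 1 in FW) stayed at 5 and 1 under DESeq2 size factors, total counts, TMM on component sums (chosen after the data had been seen), no minimum, 200 scaled counts and a pseudocount of 5, and was 7 and 1 by summed TPM and 0 and 0 at 4-fold. The median log2 fold was 0.06 to 0.09 under every alternative run.

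Other sets of components changed the values because other components enter. With 20 or more transcripts, 9 were higher in BW and 5 in FW, the median effective number was 9.64 in BW and 8.63 in FW, 114 had a share moved by 25 points, 339 had another leader and 5369 transcripts were 2-fold apart. With 40 or more, the same values were 1 and 0, 12.9 and 11.8, 16, 87 and 1879. With 30 or more transcripts above 0 in both libraries they were 0 and 0, 17.6 and 16.9, 2, 22 and 570, with a median distance of 31.4%. The transcripts 2-fold apart (3105) came to 7336 without a minimum and 1060 at 200 scaled counts. By shares of TPM the effective number in BW was 11.6, and 28 components in place of 45 had a share moved by 25 points. The 45 became 4 at 50 points and 230 at 10. The inverse Simpson index had medians of 7.77 in BW and 7.04 in FW. Pooling by length, chosen after the data had been seen, gave a median distance of 28.0%. TPM divides each count by transcript length, so shares of TPM and of counts differ by that weighting. Which transcripts made the difference was not examined.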
